A study of Mus musculus with 24 samples.

Results

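Inguinal fat of control mice was compared between CT12, when the subjective night begins, and CT0, when the subjective day begins. The comparison took the 3 control arrays titled CT12 and the 3 control arrays titled CT0, which are 6 of the 24 arrays of the study. The animals carried floxed Bmal1 alleles without a Cre transgene (Bmal1fx/fx). They had been bred onto C57BL/6J for no fewer than 6 generations, ate chow, spent the last 36 h before the start of collection in constant darkness and had been fasted for 24 h, as had every other group. The sources used here do not state their ages. The remaining 18 arrays hold control fat at CT6 and CT18 and knockout fat at all 4 times, with 3 biological replicates per group. Knockout mice carried aP2-Cre+/- beside the same floxed alleles, so that the promoter of the fat cell gene aP2 drove the recombinase, and the control mice lacked Cre altogether. Each array gives 1 log2 expression value per probe set, and an array has no sequencing depth. Precision here depends on how many arrays there are and on the spread between them, which differs by gene. The median level of the tested genes lay between 6.47 and 6.53 on the 6 arrays, and arrays of the same time correlated at 0.991 to 0.995. All levels and differences below are on the log2 scale, and differences are CT12 minus CT0.

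The molecular clock is a feedback loop of transcription that runs in most cells, fat cells included. BMAL1, whose gene symbol is Arntl, pairs with CLOCK and switches on the period, cryptochrome and REV-ERB genes through E-boxes, DNA motifs in their regulatory regions. Period and cryptochrome proteins then inhibit BMAL1 and CLOCK, REV-ERB proteins repress Arntl, and the PAR bZIP factors DBP, TEF and HLF carry the rhythm onward through D-box motifs, at which NFIL3 represses.

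In control fat, 8 of 19938 genes differed between CT12 and CT0 past the threshold, an adjusted p under 0.05 by limma, which is 0.0401% of the genes tested. The 6 genes higher at CT12 (0.0301%) were Per3, Dbp, Nr1d2, Hlf, Tef and Npy1r, and the 2 lower at CT12 (0.01%) were Arntl and Wsb1. Of these 8 genes, 6 were among the 17 clock genes measured, and Npy1r and Wsb1 lay outside them. Over all genes the median difference was 0.0254, 60% of genes were higher at CT12, and 10 genes differed by more than 1. An unadjusted p under 0.05 was found for 984 genes (4.94%), of which 730 (3.66%) were higher and 254 (1.27%) lower at CT12. In 2410 genes (12.1%) the arrays of the times did not overlap, with CT12 above CT0 in 1767 (8.86%) and below it in 643 (3.22%).

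The promoters of 4 of the 8 genes are shown because they hold a clock motif within the 250 bases before an annotated start. RefSeq start sites of GRCm38.p6 were used, each sequence runs 5′ to 3′ on the gene's own strand, and the matches are in capitals. Distances are counted from the end of each match to the start site. Per3 (chr4:151044666-151044915, minus strand) has 2 matches to the D-box TTANGTAA, which end 197 and 150 bases before its start.
Per3: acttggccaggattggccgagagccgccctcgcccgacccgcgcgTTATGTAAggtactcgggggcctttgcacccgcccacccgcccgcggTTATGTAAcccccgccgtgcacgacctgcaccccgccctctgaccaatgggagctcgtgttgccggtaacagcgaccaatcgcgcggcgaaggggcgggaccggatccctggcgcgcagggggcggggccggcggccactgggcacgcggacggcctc
Tef has 2 start sites (chr15:81802423-81802672 and chr15:81811164-81811413, plus strand), each with 1 E-box CACGTG, at 121 bases before the first and 132 before the second.
Tef, first start: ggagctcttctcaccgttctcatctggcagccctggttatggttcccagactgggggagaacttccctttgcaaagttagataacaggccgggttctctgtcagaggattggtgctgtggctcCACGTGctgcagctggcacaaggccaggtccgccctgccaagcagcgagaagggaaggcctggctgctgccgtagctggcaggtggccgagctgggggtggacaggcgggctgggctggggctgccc
Tef, second start: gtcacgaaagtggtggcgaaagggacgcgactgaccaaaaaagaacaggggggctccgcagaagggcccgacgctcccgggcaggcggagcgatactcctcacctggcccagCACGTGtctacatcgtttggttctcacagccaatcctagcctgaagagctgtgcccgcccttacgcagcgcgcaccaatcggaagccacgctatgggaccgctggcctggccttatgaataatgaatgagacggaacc
Wsb1 (chr11:79254696-79254945, minus strand) has 2 E-boxes CACGTG, at 213 and 177 bases before the first of its 2 starts, and no match at the second.
Wsb1: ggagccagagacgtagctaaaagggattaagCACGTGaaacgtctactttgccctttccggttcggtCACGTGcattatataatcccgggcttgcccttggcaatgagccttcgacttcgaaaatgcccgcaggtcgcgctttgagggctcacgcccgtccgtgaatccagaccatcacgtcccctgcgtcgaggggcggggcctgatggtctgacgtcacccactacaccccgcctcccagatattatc
Nr1d2 (chr14:18239107-18239356, minus strand) has 1 match to AGGTCA, the core site that REV-ERB and ROR receptors bind, 71 bases before its start.
Nr1d2: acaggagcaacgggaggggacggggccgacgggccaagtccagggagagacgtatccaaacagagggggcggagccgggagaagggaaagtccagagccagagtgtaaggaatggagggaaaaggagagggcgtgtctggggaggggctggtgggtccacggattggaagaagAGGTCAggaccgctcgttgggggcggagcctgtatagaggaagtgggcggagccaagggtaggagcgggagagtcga
Both strands were searched for CACGTG, for CACGTT (the E-prime box), for TTANGTAA and for AGGTCA, and each window shown matched 1 of these motifs only. None of the 4 was found in these windows of Arntl, Dbp, Hlf and Npy1r, which says nothing of regulatory sites elsewhere. Of the 32851 windows of this length in the table, 6.02% hold CACGTG, 3.85% hold CACGTT, 2.06% hold TTANGTAA and 14% hold AGGTCA. The E-box was found in 9.14% of 580 genes higher at CT12 at an unadjusted p under 0.05 and in 9.9% of 192 lower ones, against 8.11% of the 15614 tested genes with a window. For the E-prime box the shares in the same order were 3.97% and 4.17%, against 4.71%, for the D-box 3.79% and 1.04%, against 2.19%, and for the receptor core site 12.1% and 16.1%, against 14.3%. Of the 8 genes past the threshold 2 had an E-box, 0 an E-prime box, 1 a D-box and 1 the receptor core site. Of the 9 clock genes with a window that did not pass, 4 had an E-box, 3 an E-prime box, 0 a D-box and 3 the receptor core site. Such matches describe the letters and were not tested as sites of binding.

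Arntl, the activator of the loop, changed most among all 17 clock genes. It read 6.75, 6.04 and 6.22 on the CT12 arrays (replicates 1, 2 and 3, probe set 10556463), against 7.97 on each of the CT0 arrays. All CT12 arrays lay below all CT0 arrays, and replicate 1 was the highest at CT12. The difference was -1.63 ± 0.16 (SE, n = 3 arrays each), which is 3.10-fold lower at CT12 (limma adjusted p = 1.91e-05). Clock, which encodes the partner of BMAL1, read 9.71, 9.23 and 9.25 at CT12, against 9.81, 9.63 and 9.60 at CT0. Replicate 1 at CT12 lay within the CT0 range, and the difference of -0.28 ± 0.14 did not pass (adjusted p = 1.0).

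**Figure D1:**
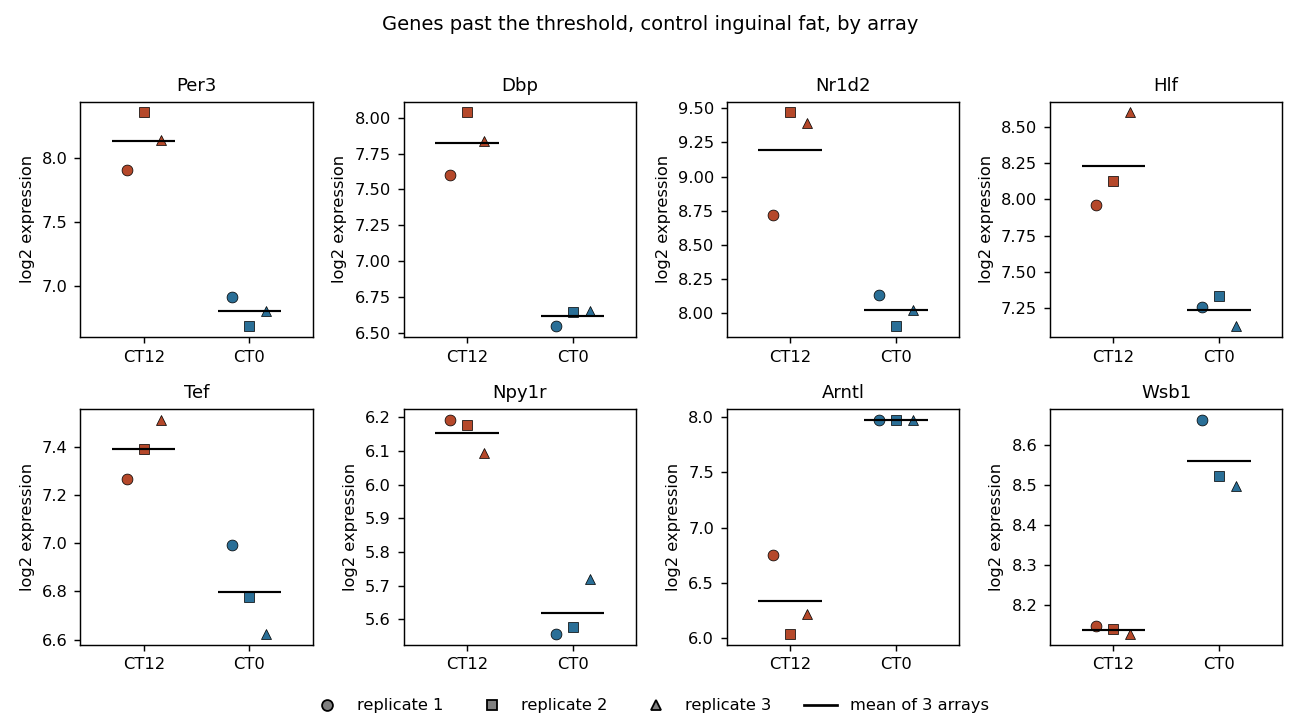
Log2 expression of the 8 genes past the threshold on each control array, with CT12 left of CT0 in every panel, 1 symbol per replicate and a line at the mean of 3 arrays. The groups do not overlap in any panel, and CT12 replicate 1 is the CT12 array nearest to CT0 for Per3, Dbp, Nr1d2, Hlf, Tef, Arntl and Wsb1.

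Of the nuclear receptor genes, Nr1d2, which encodes the repressor REV-ERB beta, read 8.72, 9.47 and 9.39 at CT12, against 8.14, 7.91 and 8.03 at CT0 (probe set 10417734). The groups were separate, with CT12 replicate 1 below the other CT12 arrays. Nr1d2 rose by 1.17 ± 0.17, or 2.25-fold (adjusted p = 0.00306). Nr1d1, which encodes REV-ERB alpha, read 8.69, 9.19 and 8.98 at CT12, against 8.48, 8.23 and 8.65 at CT0. Every CT12 array of Nr1d1 was above every CT0 array, but the nearest arrays differed little, and the difference of 0.50 ± 0.16 did not pass over all genes (unadjusted p = 0.00452, adjusted p = 0.715). Rora, which encodes an activator that competes with REV-ERB at the same sites, differed by 0.18 ± 0.13 and its groups overlapped.

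Per3 was the largest rise of the 8 genes. It encodes a period protein, and it read 7.90, 8.36 and 8.14 at CT12, against 6.91, 6.68 and 6.80 at CT0 (probe set 10518781). The lowest CT12 array stood well above the highest CT0 array. Per3 rose by 1.33 ± 0.16, or 2.52-fold (adjusted p = 0.000547). Per2, a core repressor of the loop, read 7.11, 7.29 and 7.45 at CT12, against 6.79, 6.73 and 6.65 at CT0. Its groups were separate too, and its difference of 0.56 ± 0.10 fell just short of the threshold (adjusted p = 0.0534). Per1, the light- and hormone-responsive period gene, differed by 0.28 ± 0.14, and Cry2, a cryptochrome repressor, by 0.22 ± 0.11. Both had separate groups and neither passed (adjusted p = 1.0 and 0.996). Cry1, the other cryptochrome, read 7.45, 7.08 and 7.45 at CT12, against 7.14, 7.54 and 7.40 at CT0. The Cry1 groups overlapped and the difference was -0.03 ± 0.13, with a 95% interval from -0.30 to 0.24.

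All 3 PAR bZIP genes rose. Dbp read 7.60, 8.04 and 7.84 at CT12, against 6.55, 6.65 and 6.66 at CT0 (probe set 10553092). The CT0 arrays were tightly grouped and far below the CT12 arrays, and Dbp rose by 1.21 ± 0.16, or 2.31-fold (adjusted p = 0.00149). Hlf read 7.96, 8.12 and 8.60 at CT12, against 7.26, 7.33 and 7.12 at CT0 (probe set 10389786). Its CT12 arrays were spread, with replicate 3 highest, and all lay above CT0. Hlf rose by 0.99 ± 0.15, or 1.98-fold (adjusted p = 0.00562). Tef read 7.27, 7.39 and 7.51 at CT12, against 6.99, 6.78 and 6.62 at CT0 (probe set 10425601). The groups were separate by a narrower margin, and Tef rose by 0.59 ± 0.10, or 1.51-fold (adjusted p = 0.0397).

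Nfil3, the repressor at the same D-boxes, read 7.62, 6.45 and 6.67 at CT12, against 7.38, 8.20 and 7.89 at CT0. Replicate 1 at CT12 lay above CT0 replicate 1, so the groups overlapped. The difference of -0.91 ± 0.26 did not pass (unadjusted p = 0.00199, adjusted p = 0.512), and without CT12 replicate 1 it was -1.26 (adjusted p = 0.0458). Among repressors that act on E-box genes, Ciart differed by 0.61 ± 0.23 (adjusted p = 0.854), Bhlhe41 by 0.41 ± 0.35 and Bhlhe40 by -0.05 ± 0.12. All 3 had overlapping groups.

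Of the 17 clock genes in all, 12 were higher and 5 lower at CT12, 11 had an unadjusted p under 0.05 (9 higher and 2 lower) and 10 had groups that did not overlap (9 higher and 1 lower). The list was chosen with earlier results of these data known, so these counts are a description. Over all genes 4.94% had an unadjusted p under 0.05 and 12.1% did not overlap.

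**Figure D2:**
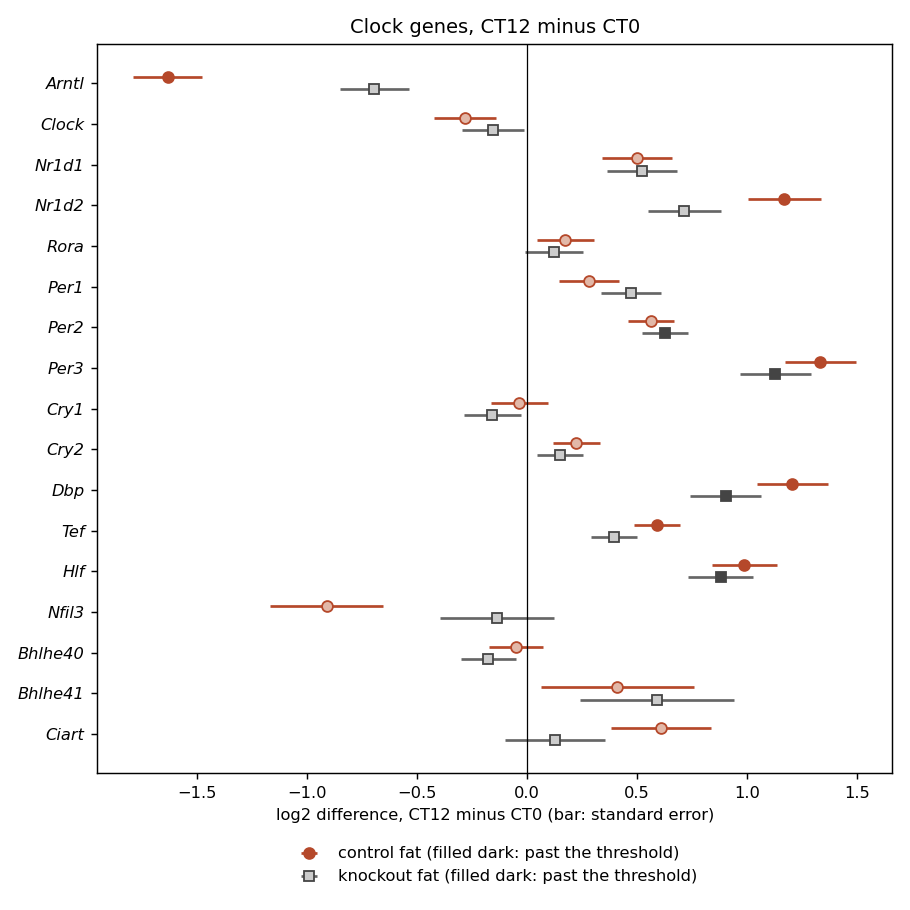
Log2 difference between CT12 and CT0 for the 17 clock genes, in control fat (circles, upper of each pair) and in knockout fat (squares), with the SE of the limma fit as bars and dark symbols for an adjusted p under 0.05. Arntl lies at -1.63 in control fat and -0.69 in knockout fat, and all 17 genes have the same sign in both.

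Outside the clock, Npy1r, a G protein-coupled receptor for neuropeptide Y, read 6.19, 6.18 and 6.09 at CT12, against 5.56, 5.58 and 5.72 at CT0 (probe set 10572070). The arrays of each time lay close together and the groups were separate. Npy1r rose by 0.54 ± 0.10, or 1.45-fold (adjusted p = 0.0397). Wsb1, which encodes the substrate receptor of a ubiquitin ligase, read 8.15, 8.14 and 8.13 at CT12, against 8.66, 8.52 and 8.50 at CT0 (probe set 10388938). The CT12 arrays were nearly equal and all lay below CT0, and Wsb1 fell by 0.42 (SE 0.08), which is 1.34-fold (adjusted p = 0.0475).

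At an adjusted p under 0.10 there were 16 genes (0.0802%), and the 8 added ones are named here after their values were seen. They include Per2. The remaining 7, none of which passed, were Fbxo45 (0.57 ± 0.11, an F-box protein of a ubiquitin ligase), Tns2 (0.56 ± 0.11, a focal adhesion protein), Appbp2 (0.55 ± 0.11, which binds the amyloid precursor protein), Cys1 (0.65 ± 0.13, a protein of primary cilia), R3hcc1l (0.34 ± 0.07), the olfactory receptor gene Olfr1431 (0.45 ± 0.09) and Lonrf3 (-0.68 ± 0.13, a RING finger protein). Lonrf3 read 6.62, 6.48 and 6.71 at CT12, against 7.20, 7.31 and 7.34 at CT0, and was the 1 of these 7 that was lower at CT12 (adjusted p = 0.0588). Olfr1431 read low, at 3.902, 4.295 and 3.947 at CT12, against 3.498, 3.628 and 3.655 at CT0. The median level on these arrays was 6.47 to 6.53.

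The calls differed in how far they rested on single arrays. Arntl, Per3 and Dbp passed in all 6 fits that left out 1 of the 6 arrays, Nr1d2 in 5, Hlf in 4, Tef in 2, and Npy1r and Wsb1 in 0 of 6. All 8 kept their sign. The 2 genes outside the clock therefore sit at the edge of the threshold, with adjusted p between 0.0713 and 0.302 for Npy1r and between 0.09 and 0.434 for Wsb1 in those fits.

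One array stood apart for the clock. Control replicate 1 at CT12 was known from earlier results to lie toward the knockout arrays for genes that differ by genotype. Among the 3 CT12 arrays it was also the nearest to the CT0 mean for 14 of 17 clock genes (82.4%), against 34.8% of all genes, and for all 6 clock genes past the threshold. Arntl lay 1.22 below the CT0 mean on this array, against 1.93 and 1.75 on replicates 2 and 3, and Nr1d2 lay 0.70 above it, against 1.45 and 1.37. On the same array the mean log2 level of 10 adipocyte markers was 10.77, against 10.57 and 10.56 on replicates 2 and 3, and that of 18 collagen and matrix genes was 8.29, against 7.97 and 7.92. The part of these in the clock values was not tested. Without replicate 1, 13 genes passed, 11 higher and 2 lower at CT12, with 6 of the 8 genes among them. Arntl was then -1.84, Nr1d2 1.41, Per3 1.45, Dbp 1.32, Hlf 1.12 and Tef 0.65, and Per2 passed at 0.65 (adjusted p = 0.027).

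The other 2 control times show where CT12 and CT0 fall in the day. Arntl had means of 7.97 at CT0, 6.73 at CT6, 6.34 at CT12 and 7.32 at CT18, so that CT0 was its highest time and CT12 its lowest. Per3 was the reverse, with 6.80, 7.67, 8.13 and 7.26 at the same times, and Dbp, Tef, Hlf and Npy1r also had their lowest mean at CT0 and their highest at CT12. Nr1d2 had means of 8.02 at CT0, 9.13 at CT6, 9.19 at CT12 and 7.98 at CT18. Its mean at CT6 was close to that at CT12, as were those of Dbp (7.77 and 7.82) and Tef (7.31 and 7.39), so most of their rise was present by CT6. For all 8 genes the CT6 mean lay between the CT0 and CT12 means, and for 6 of 8 it was the nearer to CT12. At CT18, 7 of 8 means lay between those of CT0 and CT12, with Nr1d2 as the exception, and only that of Npy1r was nearer to CT12.

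Other clock genes had their extremes at other times. Nr1d1 had means of 8.45 at CT0, 9.90 at CT6, 8.95 at CT12 and 7.41 at CT18, so its highest and lowest times were not among the pair compared. Between CT6 and CT0 it differed by 1.45 ± 0.16 (adjusted p = 0.000166), against 0.50 ± 0.16 between CT12 and CT0. Cry1 had means of 7.36, 6.87, 7.33 and 7.61, with nearly equal levels at CT0 and CT12 on either side of a low CT6. Nfil3, at 7.82, 6.81, 6.91 and 8.18, was low at CT6 and CT12 and high at CT18 and CT0. These steps share the CT0 and CT12 arrays with the comparison above, so they are no separate evidence for it.

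**Figure D3:**
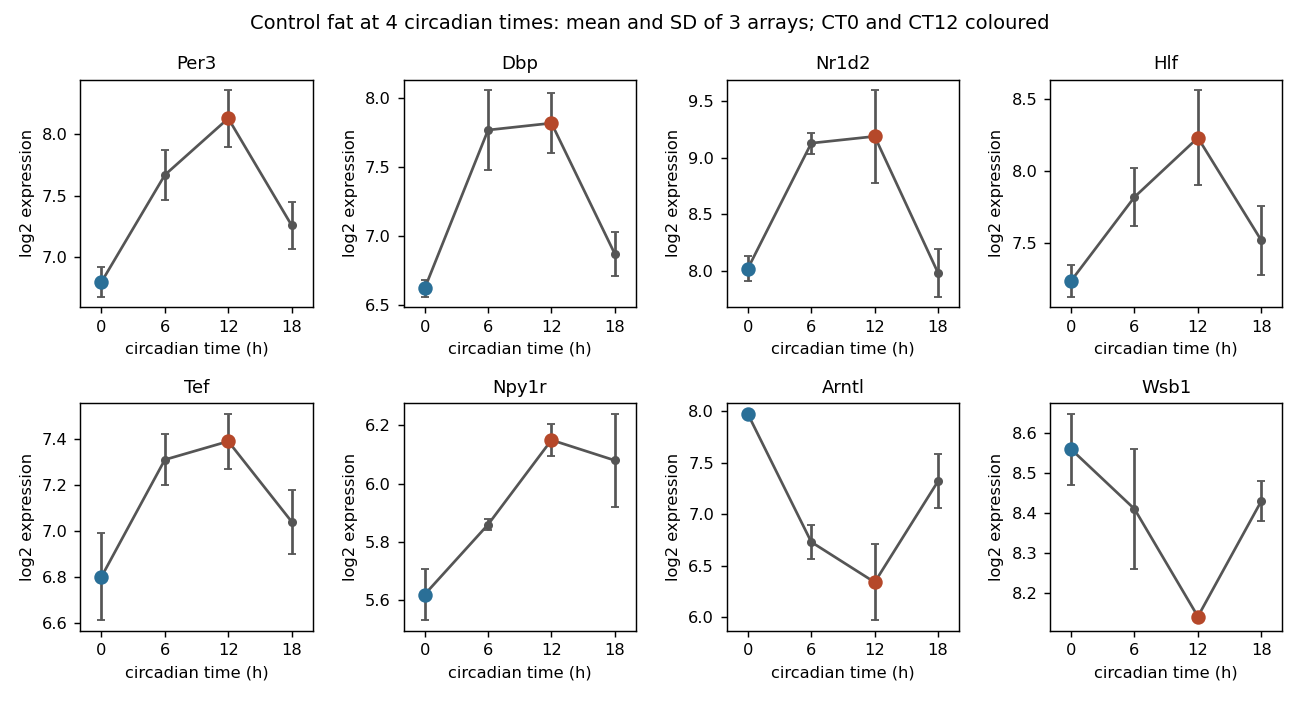
Mean log2 expression of the 8 genes in control fat at CT0, CT6, CT12 and CT18 (circadian time in hours), with the SD of 3 arrays as bars, CT0 in blue and CT12 in red. Arntl and Wsb1 are highest at CT0 and lowest at CT12, and Nr1d2 is almost level between CT6 (9.13) and CT12 (9.19).

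Knockout fat at the same times gave separate arrays for the same genes. There 19 genes passed (0.0953%), 15 higher (0.0752%) and 4 lower (0.0201%) at CT12, and 1948 (9.77%) had an unadjusted p under 0.05, 1080 higher (5.42%) and 868 lower (4.35%). All 8 genes of control fat had the same sign in knockout fat and groups that did not overlap, where 6.93% of all genes were higher and 6.42% lower with no overlap. Per3 (1.13 ± 0.16), Dbp (0.90 ± 0.16), Hlf (0.88 ± 0.15) and Wsb1 (-0.45 ± 0.08) passed in both genotypes. Nr1d2 (0.72 ± 0.17), Tef (0.40 ± 0.10), Npy1r (0.42 ± 0.10) and Arntl (-0.69 ± 0.16) did not pass in knockout fat, with adjusted p of 0.111, 0.156, 0.1 and 0.1. Per2 passed there (0.63 ± 0.10, adjusted p = 0.0166), where control fat fell just short, and the interval of its difference between the genotypes ran from -0.37 to 0.24. Cys1 also passed in knockout fat, at 0.93 ± 0.13. Knockout replicate 2 at CT0 stood apart, with correlations of 0.976 and 0.977 with the other arrays of its group, and without it 6 genes passed in knockout fat. Knockout replicate 1 at CT12 was taken from earlier results to lie toward the control arrays, and without that array 2 genes passed.

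The test of the difference between the genotypes, control minus knockout, called 0 genes (0%) by limma, with 696 genes (3.49%) at an unadjusted p under 0.05, 435 positive (2.18%) and 261 negative (1.31%). Arntl had the fourth smallest p of all genes that could be named. Its arrays in knockout fat read 6.46, 6.89 and 6.87 at CT12 and 7.51, 7.30 and 7.49 at CT0, and its time difference in control fat minus that in knockout fat was -0.94 ± 0.22 (unadjusted p = 0.000378, adjusted p = 1.0). At CT12, replicate 1 was taken from earlier results to lie toward the other genotype in both groups. For Arntl it held the highest control value (6.75) and the lowest knockout value (6.46) of that time. The part of these arrays in the difference was not tested. Which exons were deleted is not stated in the labels, so the probe set of Arntl is no check of the deletion. The other 4 genes of smallest p were Asnsd1, Olfr444, Atp11a and Clpp. Of these, Asnsd1 (0.43) and Atp11a (-0.49) passed in knockout fat and differed by -0.06 and 0.06 in control fat. Nfil3 was the other clock gene with an unadjusted limma p under 0.05, at -0.77 ± 0.36 (unadjusted p = 0.0456, adjusted p = 1.0). For Nr1d2 the interval of the difference ran from -0.03 to 0.95, and for Hlf from -0.33 to 0.54, intervals that include both no difference and a sizeable one.

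Markers of fat cells were read on all 6 arrays. Adiponectin (Adipoq), the hormone of mature fat cells, read 12.13, 11.92 and 12.02 at CT12, against 12.13, 11.96 and 12.04 at CT0. The fatty acid carrier Fabp4 read 12.56, 12.47 and 12.58 at CT12, against 12.66, 12.51 and 12.56 at CT0. Of 10 measured adipocyte markers, 0 passed and the median difference was 0.04, beside 0.0254 over all genes. In bulk tissue fewer cells of a type and less RNA per cell cannot be told apart. None of 14 cell type marker lists and none of the 39 lists outside the clock had a member that passed. The lists below were chosen with earlier results known and several share genes, so their counts and medians are a description.

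The lipogenesis list had the lowest median of the 39, and its size rested mostly on 1 array. Of 13 lipogenesis genes, 10 were lower at CT12, with a median of -0.53 and 0 past the threshold. At an unadjusted p under 0.05, 6 were lower and 1 was higher, beside 1.27% and 3.66% of all genes. With separate groups, 3 were lower, beside 3.22% of all genes. Fasn, which encodes fatty acid synthase, read 8.34, 7.41 and 7.49 at CT12, against 8.62, 10.50 and 8.40 at CT0. Elovl6, which lengthens the product of fatty acid synthase, read 7.05, 6.99 and 6.87 at CT12, against 7.76, 10.46 and 7.37 at CT0. Acly, which makes cytosolic acetyl-CoA, read 7.50, 7.33 and 7.34 at CT12, against 7.51, 9.15 and 7.50 at CT0. In each case CT0 replicate 2 stood far above the other 5 arrays. For Fasn and Elovl6 the other CT0 arrays also lay above all CT12 arrays. CT0 replicate 2 was the highest CT0 array for all 13 genes and the highest of the 6 for 10, with a median excess of 1.22 over the other CT0 arrays. Without it the median was -0.09, Fasn was -0.77 in place of -1.43 ± 0.48 (adjusted p = 0.763 with all arrays), Elovl6 -0.60 in place of -1.56 ± 0.61 and Acly -0.11 in place of -0.66 ± 0.25. Mlxipl, which encodes the glucose-responsive factor ChREBP, went the other way at 0.38 ± 0.14 (adjusted p = 0.789).

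The same array was the highest for markers of contractile cells. The mean log2 level of 11 smooth muscle and pericyte markers was 8.41, 8.39 and 8.47 at CT12, against 8.02, 9.36 and 8.34 at CT0. Replicate 2 at CT0 lay highest, replicate 1 at CT0 lowest, and the median difference of -0.18 turned to 0.28 without replicate 2. It was also the highest for 13 thermogenic genes, whose mean log2 level was 6.22, 6.11 and 6.01 at CT12, against 6.08, 6.55 and 6.06 at CT0. Cox8b, a cytochrome oxidase subunit of brown fat, read 8.79, 7.70 and 7.71 at CT12, against 8.23, 9.57 and 8.18 at CT0 (-0.59 ± 0.35, adjusted p = 1.0), and the difference was -0.14 without CT0 replicate 2. The part of the contractile and thermogenic genes in the lipogenic values was not tested. The 18 elongation and desaturation genes, which share Elovl6, Scd1 and Scd2 with the lipogenesis list, had 14 lower at CT12, a median of -0.14 and 0 past the threshold. Scd1, the main desaturase of fat, read 12.32, 12.32 and 12.35 at CT12, against 12.68, 12.71 and 12.47 at CT0, so here the groups were separate without a single high array (-0.29 ± 0.13, adjusted p = 0.989).

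**Figure D4:**
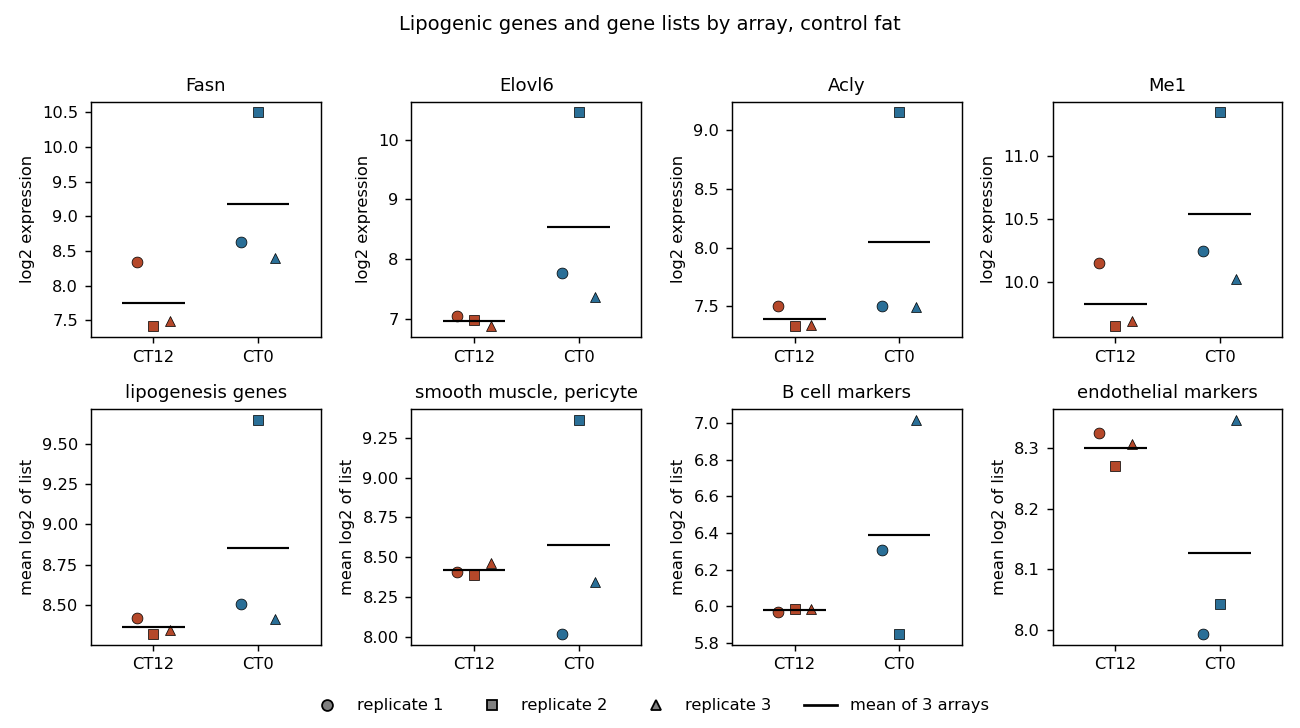
Log2 expression of 4 lipogenic genes (upper row) and the mean log2 level of 4 gene lists (lower row) on each control array, CT12 left of CT0, with a line at the mean of 3 arrays. CT0 replicate 2 is the high array for Fasn (10.50), Elovl6 (10.46), Acly, Me1 and the smooth muscle list (9.36), and CT0 replicate 3 for the B cell list (7.02).

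Genes of fat storage and of the adipocyte program were mostly higher at CT12, as were 60% of all genes, and none of them passed. Of 17 adipogenic factors, 13 were higher at CT12, with a median of 0.124. Pparg, the master regulator of fat cells, read 10.37, 10.59 and 10.42 at CT12, against 9.89, 9.80 and 10.08 at CT0. The groups were separate, and the difference of 0.54 ± 0.14 had an unadjusted p of 0.000695 and an adjusted p of 0.357. Klf15, a factor of fasting and steroid response, read 7.28, 7.57 and 7.58 at CT12, against 6.80, 7.05 and 6.96 at CT0, again with separate groups (0.54 ± 0.14, adjusted p = 0.357). Of 12 triglyceride synthesis genes 8 were higher at CT12, with a median of 0.116. Gpam, which catalyses the first step of glycerolipid synthesis, differed by 0.63 ± 0.19 and Lpin1, a phosphatidate phosphatase, by 0.62 ± 0.25, both with separate groups and adjusted p of 0.673 and 0.909. Of 18 lipolysis and lipid droplet genes 13 were higher, with a median of 0.0385, and among them were Abhd5, the activator of adipose triglyceride lipase (0.29 ± 0.10), and Lipe, hormone-sensitive lipase (0.32 ± 0.15). Of 10 fatty acid uptake genes 5 were higher and 5 lower, with a median of 0.0333 that lay between -0.0579 and 0.107 when 1 array was left out.

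Glucocorticoid responsive genes were higher at CT12 for 13 of 15 members, with a median of 0.225, 5 at an unadjusted p under 0.05 and 6 with separate groups, all of them higher. Over all genes 60% were higher at CT12, 3.66% were higher at an unadjusted p under 0.05 and 8.86% were higher with separate groups. The clock gene Per1 is a member of this list and is among those with separate groups. Zbtb16, a zinc finger factor, read 9.74, 10.06 and 9.96 at CT12, against 9.14, 9.12 and 9.12 at CT0. All CT0 arrays were nearly equal and below CT12, and the difference was 0.79 ± 0.21 (unadjusted p = 0.00118, adjusted p = 0.396). Fkbp5, which tempers the glucocorticoid receptor, differed by 0.68 ± 0.31 with overlapping groups, Hif3a by 0.33 ± 0.13 and Klf9 by 0.31 ± 0.12. The list median stayed between 0.181 and 0.333 when any 1 array was left out. In knockout fat it was 0.355, with 15 of 15 members higher at CT12.

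Among insulin signalling genes 10 of 17 were higher at CT12, with a median of 0.12. Foxo1, the transcription factor that insulin restrains, read 8.29, 8.07 and 8.06 at CT12, against 7.65, 7.73 and 7.79 at CT0. Its groups were separate (0.42 ± 0.11, unadjusted p = 0.000718, adjusted p = 0.357). The receptor gene Insr differed by 0.20 ± 0.07 and the kinase subunit gene Pik3r1 by 0.30 ± 0.11, while Irs2, an adaptor of the receptor, differed by -0.21 ± 0.10. Of 22 genes of glucose use 14 were lower, with a median of -0.0926, although Hk2, a hexokinase, read 7.84, 7.71 and 7.64 at CT12, against 7.28, 7.19 and 7.04 at CT0 (0.56 ± 0.16, adjusted p = 0.485). None of these passed.

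Of 13 genes known to cycle in many tissues, 9 were higher at CT12, with a median of 0.19. Wee1, a kinase that holds back mitosis and is a known target of BMAL1 and CLOCK, read 6.96, 7.37 and 7.62 at CT12, against 6.36, 6.47 and 6.16 at CT0. The groups were separate and the difference of 0.99 ± 0.20 missed the threshold (adjusted p = 0.104), and without CT12 replicate 1 it passed at 1.17 (adjusted p = 0.0458). Lonrf3, named above among the genes at an adjusted p under 0.10, is also a member and was lower at CT12 (-0.68). Tspan4, a membrane tetraspanin, differed by 0.41 ± 0.10 (adjusted p = 0.357). Leo1, a subunit of an elongation complex of RNA polymerase, differed by -0.42 ± 0.15 (adjusted p = 0.78), and its CT12 replicate 1 read 8.26, near the CT0 arrays, against 7.68 and 7.82 on the other CT12 arrays.

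Endothelial markers were higher at CT12 for 10 of 12 members, with a median of 0.139, 4 at an unadjusted p under 0.05 and 5 with separate groups, all of them higher, beside the same 60%, 3.66% and 8.86% over all genes. Emcn, an endothelial sialomucin, read 8.75, 8.98 and 9.09 at CT12, against 8.27, 8.39 and 8.58 at CT0 (0.53 ± 0.14, unadjusted p = 0.000799, adjusted p = 0.357). Ptprb, a vascular phosphatase, differed by 0.52 ± 0.18, and the VEGF receptor genes Flt1 and Kdr by 0.39 ± 0.18 and 0.33 ± 0.14. The mean log2 level of the list was 8.33, 8.27 and 8.31 at CT12, against 7.99, 8.04 and 8.35 at CT0, so that CT0 replicate 3 lay above all CT12 arrays. In knockout fat 4 of 12 members were higher at CT12, beside 49% of all genes there, with a median of -0.0952.

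The medians of the lymphocyte lists again turned mostly on 1 array. All 8 B cell markers were below CT0 at CT12, at a median of -0.43, and 0 passed the threshold. Of the 8, 2 were lower at an unadjusted p under 0.05 and 3 were lower with separate groups, beside 1.27% and 3.22% of all genes. The mean log2 level of the list was 5.97, 5.98 and 5.98 at CT12, against 6.31, 5.85 and 7.02 at CT0. Replicate 3 at CT0 was the high array, and without it the median was -0.07. Cd22, a B cell surface lectin, read 6.15, 6.07 and 6.06 at CT12, against 6.83, 6.33 and 7.70 at CT0 (-0.86 ± 0.37, adjusted p = 0.93). The Cd22 groups were separate, and without CT0 replicate 3 the difference was -0.485. T cell markers followed the same array, at a mean of 6.22, 6.20 and 6.22 at CT12, against 6.36, 6.16 and 6.88 at CT0.

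Lists of fatty acid oxidation, fasting-induced PPAR targets, cholesterol synthesis, respiratory chain, adipokine, thermogenic, detoxification, immediate early, heat shock, chaperone, interferon and proliferation genes had medians between -0.0801 and 0.0643. Of the 39 lists outside the clock, 21 kept the sign of their median whichever of the 6 arrays was left out.

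**Figure D5:**
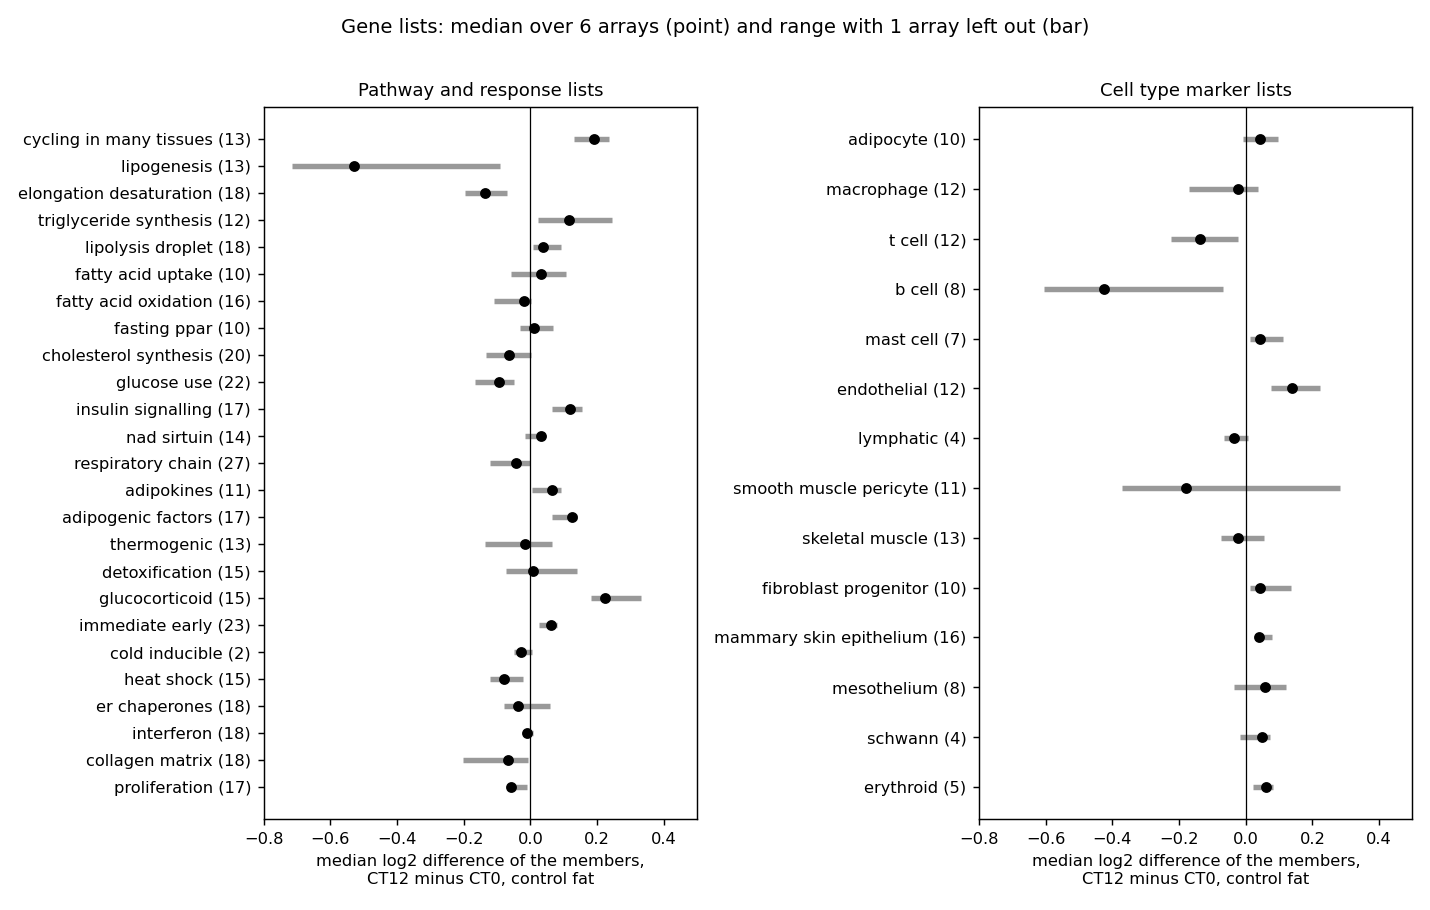
Median log2 difference between CT12 and CT0 in control fat over the members of each list outside the clock (points, number of measured genes in parentheses), with the range when 1 of the 6 arrays is left out as bars. Lipogenesis runs from -0.714 to -0.09, B cell markers from -0.606 to -0.0674 and smooth muscle markers across 0, while glucocorticoid responsive genes stay above 0.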

How the data were processed

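Total RNA of inguinal fat was amplified from 50 ng, labelled with biotin and hybridised to Affymetrix mouse gene arrays, per the labels' protocols. Per the submitters' processing notes, the authors summarised each array with RMA (robust multi-array average), and the deposited values are log2 expression. The sources used here state neither the version of RMA nor the dates of hybridisation and scanning. RMA puts arrays on 1 common distribution, so a change shared by most genes would be removed.

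Gene names came from the platform annotation of the probe sets (35556 in all: 21789 with 1 symbol, 1621 with several, 12146 unnamed). Entrez numbers of 21698 matched a RefSeq table, and 0 symbols changed. For 999 genes with several probe sets the one of highest mean was taken, which left 19938 genes. All 24 arrays entered 1 group-means model of 8 groups (limma 3.58.1, functions lmFit and eBayes, under R 4.3.3). P-values were adjusted over all genes by the Benjamini-Hochberg method, at a threshold of 0.05. The model had 16 residual and 5.03 prior degrees of freedom. Errors beside differences are the SE of that fit, and 95% intervals come from it. Tables were made with Python 3.11.15 and pandas 2.3.3.

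The groups, the 44 gene lists (550 genes, 510 of them measured), the comparisons and the alternatives were chosen with earlier results of these data known. Named genes comprise the 17 clock genes, up to 15 called genes in each direction, up to 4 members of smallest p of a list described, the 5 genes of smallest p for the difference between genotypes, and up to 10 called genes that also passed in knockout fat. Beside this rule, 7 genes at an adjusted p under 0.10 were named after their values were seen, of which Lonrf3 also falls under the rule. Predicted genes were counted and not named. Adipoq and Fabp4 are given as a check of the tissue. The titles number biological replicates but tie no numbers across groups, and p-values measure the spread between these arrays. List genes with no single-symbol probe set were not analysed here.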

Additional observations from a re-analysis of the deposited data

Results flagged for a closer look

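Of 83 genes checked, the clock genes and the others named here among them, 3 (3.61%) had all 3 CT12 arrays of control fat on one side of their CT0 mean and all 3 CT12 arrays of knockout fat on the other side of theirs. The same held for 33 of 510 measured list genes (6.47%) and for 1165 of all 19938 genes (5.84%). The difference between control and knockout, tested in the same limma fit, did not pass for any of them (adjusted p = 1.0). For the olfactory receptor gene Olfr444 it was 0.562 ± 0.13 (SE, unadjusted p = 0.000298), with 0.355 in control fat and -0.207 in knockout fat. For Clpp, a mitochondrial protease subunit, it was -0.451 ± 0.112 (unadjusted p = 0.000626), with -0.14 in control fat and 0.31 in knockout fat. For Kdr, a VEGF receptor of endothelial cells, it was 0.42 ± 0.203 (unadjusted p = 0.0512), with 0.335 in control fat and -0.085 in knockout fat. No outlier test of single values was run within groups of 3 arrays.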

How the results depend on the processing

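The count of genes that passed between CT12 and CT0 in control fat was 8 in the fit reported. It was 3 with the 6 arrays of the comparison alone, 5 after quantile normalization and 5 among all 35556 probe sets. With array weights it was 73 (61 higher and 12 lower at CT12). It was 17 without 4 arrays, the replicates 1 at CT12 and the replicates 3 at CT18 of both genotypes (14 higher and 3 lower, with 6 of the 8 genes among them). These 4 arrays were taken from earlier results to lie toward the other genotype, which was not tested here. The 12 control arrays alone, filters on dim genes, the mean of probe sets, a trended robust prior and the replicate block gave 6 to 12. The count was between 3 and 13 with 1 array left out, 3 without CT12 replicate 3, 4 without CT0 replicate 3, 5 without CT12 replicate 2 and 13 without CT12 replicate 1. In knockout fat, where 19 genes passed, it was 0 with the arrays of the comparison alone by limma (1319 at an unadjusted p under 0.05), 1 with the 12 knockout arrays, 75 with array weights, 3 without those 4 arrays, and between 0 and 63 with 1 array left out (0 without CT0 replicate 1, 63 without CT0 replicate 3). The difference between genotypes had 0 calls by limma with any 1 array left out (486 to 1118 genes at an unadjusted p under 0.05) and 1 call without the 4 arrays. The cause of these shifts was not tested. Replicate numbers did not pair the control arrays (same-number correlations of 0.0142, 0.112 and -0.0477), and the fit with a replicate block had 7 calls in control fat, without Wsb1, 17 in knockout fat and 0 for the difference. Over 2673 combinations of a single gene and an alternative, the call was unchanged in 2616, lost in 34 and gained in 23. Most of these combinations belong to genes that did not pass, and only the 8 called genes could lose a call. Arntl, Per3 and Dbp passed in 16 of 16 alternatives, Nr1d2 in 14, Hlf in 12 and Tef in 9 of 16. Npy1r passed in 5 of 15 and Wsb1 in 5 of 16. Reversals of sign were counted only for genes past the threshold, and there were 0. A change of sign in any other gene was counted as unchanged, as for Cry1, which ran from -0.14 to 0.09. Of 704 such values of list medians, 661 moved by less than the spread between replicates. That spread includes outlying arrays, so a list that turns on 1 array can count among the 661. The lipogenesis median did so, at -0.529 with all arrays and -0.09 without CT0 replicate 2. So did the smooth muscle median, at -0.178 and 0.284. The count is therefore no measure of how stable such lists are. With 3 arrays per time, 1 array can make or end a call, and levels of different probe sets cannot be compared.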
